A study of Mus musculus with 2 samples.

Results

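The genes described here are those of mouse chromosome 14 from Tspan14 to Tmtc4, in the gene order of assembly GRCm38.p6. They run from the place where a proximal stretch of higher signals ends to the last bright gene of the chromosome. Members were genes of this interval with a probe set named to a single gene. Otx2, Sall2, Zic2, Zic5 and Spry2 also lie there and were left out by the same rule. This gave 244 of the 10313 genes on the table, and 132 of the 244 were bright, meaning that the higher of the 2 signals reached the median of its own array (7.90 for overexpression, 7.96 for control). The interval was chosen on these same signals, the log2 differences between the 2 arrays, because its genes were lower in the overexpressing cells, so the share of lower genes and the size of the shift below describe that choice and support nothing.

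RNA came from mouse embryonic stem cells of line 46C, whose Sox1 locus carries a green fluorescent protein reporter. The cells overexpressed the long noncoding RNA lincU or were controls, and both cultures grew on feeder cells with 15% serum and 1000 U/ml of leukaemia inhibitory factor. The study asks how raised lincU acts on naive pluripotency and ERK signalling. Each group had 1 Affymetrix array, so no difference has a replicate check, no test was possible, and every value describes these 2 arrays. How lincU was overexpressed, and whether the overexpressing cells were 1 clone, are not given in the sources used here.

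Chromosome 14 of the mouse carries genes with little in common beyond their position. The stretch from Tspan14 holds housekeeping genes of DNA repair, RNA processing, nuclear transport and protein breakdown. Between them lie clusters such as the granzymes and mast cell proteases, the T cell receptor alpha and delta genes and the cardiac myosins. The stretch also holds developmental regulators such as Bmp4 and the cell cycle regulator Rb1. Most such genes have promoters of their own, and some neighbours share one between them.

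All 8 measured embryonic stem cell markers were bright, as were 5609 of all 10313 genes. Of these 8 markers 3 were lower and 5 higher, from Utf1 at -0.43 to Esrrb at 0.65. Their summed log2 signal was 16.57 in overexpressing and 16.44 in control cells. Of 14 feeder fibroblast markers 12 were measured and none was at the floor on both arrays, although feeder cells had been removed. The summed log2 signal of the feeder markers was 14.51 in overexpressing and 14.44 in control cells, with Fn1 and Vim the highest in it. Of their 10 bright members 5 were lower and 5 higher, from Mmp2 at -0.46 to Pdgfrb at 0.69. What part feeder RNA has in the values below was not tested. A lower signal in bulk RNA cannot tell fewer cells that express a gene from less RNA per cell.

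The 132 bright genes had a median log2 difference, overexpression minus control, of -0.59, which is a signal of 66.3% of control. The middle 66 of them lay between -0.79 and -0.37, and the whole range went from -1.77 to 0.62. Of the 132, 126 were lower in overexpressing cells, where 49.8% of all 5609 bright genes were lower. At least 1.5-fold lower were 68, where 6.69% of all bright genes were, and at least 2-fold lower were 10, against 1.3% of all bright genes. At least 1.5-fold higher was 1 member, against 4.65% of all bright genes, and at least 2-fold higher was none, against 1.53%. The 5402 bright genes on other chromosomes had a median of 0.01. The SD of the differences was 0.36 over the 132 members and 0.37 over those 5402 genes, so the members stood lower as a body with about the same spread.

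**Figure D1:**
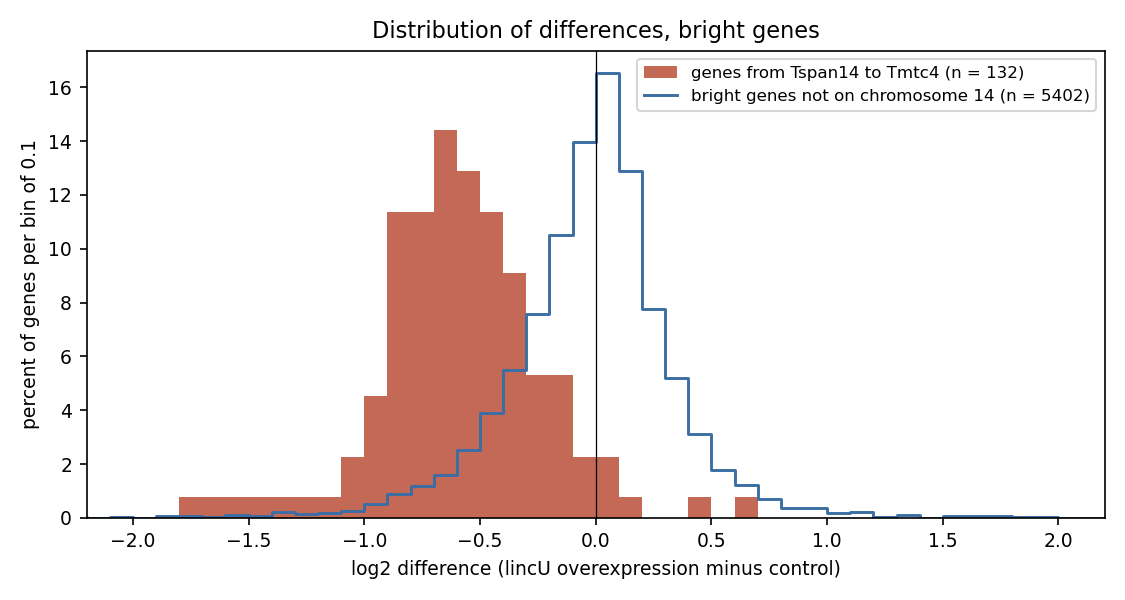
Percent of genes in bins of 0.1 on the log2 difference (lincU overexpression minus control), as filled bars for the 132 bright genes from Tspan14 to Tmtc4 and as a line for the 5402 bright genes not on chromosome 14. The bars centre on a median of -0.59 and the line on 0.01, and the widths are alike.

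On none of the other 19 chromosomes (autosomes and X), each taken whole, did the bright genes have a median like this. Whole chromosomes cannot show whether a shorter stretch elsewhere is shifted, since none was sought there. Their medians lay between -0.04 on chromosome 17 and 0.10 on chromosome 6, and the share of lower genes between 36.7% and 57.4%. On chromosome 14 itself the 70 bright genes before Tspan14 had a median of 1.08.

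At the proximal end the change in sign fell between neighbouring bright genes. Ghitm, which encodes an inner mitochondrial membrane protein and is the last bright gene outside, had a log2 signal of 12.93 in overexpressing and 11.52 in control cells, a difference of 1.41. Tspan14, the first gene inside, encodes a tetraspanin that partners the protease ADAM10 and had 8.65 in overexpressing and 8.92 in control cells, a difference of -0.27. The step from one to the other was -1.68. Ero1a (an oxidase of protein folding in the endoplasmic reticulum), Psmc6, Styx and Gnpnat1 followed at -0.34, -0.29, -0.37 and -0.17. All 5 first genes were thus above the median of the members. At the distal end Tm9sf2 stood at -0.84, the lyase gene Clybl at -0.20 and Tmtc4, which encodes an endoplasmic reticulum mannosyltransferase, at -0.53. Only Itgbl1 and Fgf14 were measured beyond Tmtc4, and both were under the floor on both arrays.

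**Figure D2:**
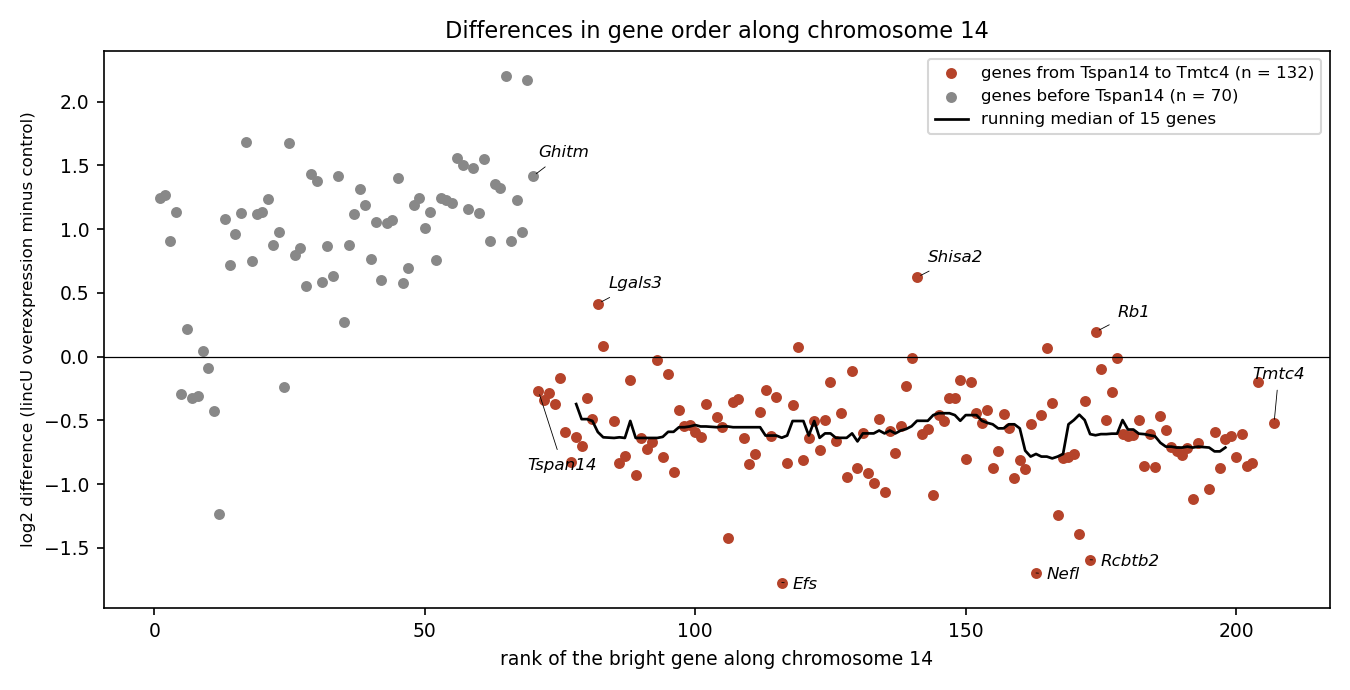
Log2 difference (lincU overexpression minus control) of each bright gene of chromosome 14 by its rank along the chromosome, for the 132 genes from Tspan14 to Tmtc4 and the 70 bright genes before them, with a running median of 15 genes. The points change sign between Ghitm at 1.41 and Tspan14 at -0.27, although some genes before Ghitm, such as Ube2e2 at -1.24, also lie below 0. The running median, not drawn for the outermost genes of the interval, stays below 0.

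In blocks of 20 bright genes along the chromosome, the lower signal ran through the whole interval. The block from Tspan14 to Apex1 had a median of -0.50, that from Pnp to Psmb5 of -0.55 and that from Acin1 to Zmym5 of -0.61. The block from Cryl1 to Fdft1 had -0.50, that from Mtmr9 to Fndc3a -0.75, that from Rcbtb2 to Slain1 -0.61 and the last 12 genes, from Rbm26 to Tmtc4, -0.66. Every block therefore stood below 0, in an interval chosen for lower genes, and the block medians lay between -0.75 and -0.50. All 20 genes of the second block and all 12 of the last were lower, and each other block held 1 or 2 genes that were not. The longest run of consecutive lower genes had 33, from Ap5m1 to Thtpa. The rank along the chromosome and the difference had a Pearson r of -0.18 and a Spearman rho of -0.20 across the 132 genes, which are not independent and share the 2 arrays. Neighbouring bright genes differed by a median of 0.29.

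Features of the genes were set against the difference. One of them, the mean signal, comes from the same 2 values as the difference itself. The mean log2 signal of a gene had a Pearson r of 0.08 with its difference across the 132 genes. In 3 groups of 44 genes by mean signal, the median was -0.50 in the dimmest, -0.63 in the middle and -0.59 in the brightest group. The SD over genes was 0.44 in the dimmest and 0.30 in the brightest group, and 6 of the 10 genes at least 2-fold lower were in the dimmest. These 6 were bright through the control array alone and so had to be lower. The brightness rule thus adds to the count and the spread in the dimmest group. Pearson's r was -0.02 for the genomic span of the gene on a log10 scale and 0.02 for its number of bright probe sets. Across the 102 members with a promoter in the RefSeq table, r was 0.03 for the number of CpG dinucleotides in the 250 bases upstream of the start. These correlations are across genes that share 2 arrays and are descriptions.

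**Figure D3:**
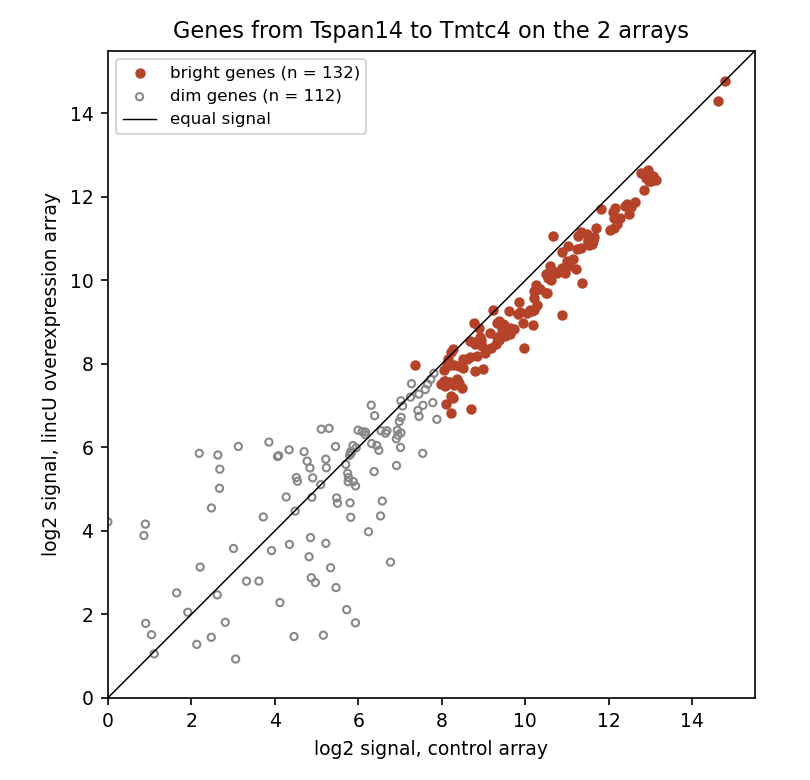
Log2 signal on the lincU overexpression array (vertical) against the control array (horizontal) for the 244 genes, with 132 bright genes filled and 112 dim genes open, and a line of equal signal. Bright genes lie in a band just under the line over the whole range of signal, while dim genes scatter on both sides.

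Probe sets of one gene are the only repeated measurement. Of the 132 genes, 37 had at least 2 bright probe sets, and in 35 of these all were lower, where 29.2% of the 1732 genes of the table with several bright probe sets had all lower. In 15 of the 37 all were at least 1.5-fold lower, against 2.25% of the 1732 genes. As the interval was chosen for lower genes, these counts do not by themselves measure agreement between probe sets. The SD between bright probe sets of a gene was 0.24 in these 37 and 0.23 over all 1732 genes, and it holds no variation between cultures. Of all 181 bright probe sets of the members, 173 were lower, where 49.3% of the 7983 bright probe sets of the table were. The 64 of shared or mixed type, which can bind several transcripts, had a median of -0.66 with 63 lower, against 49.2% of such probe sets on the table. The 117 others had a median of -0.59 with 110 lower, against 49.4%. Dim probe sets of the bright members agreed less. Above the floor on at least 1 array were 28 of them, with a median of -0.40 and 20 lower, against 58.6% of the 1004 such probe sets on the table. Vwa8 had 7.47 in overexpressing and 8.07 in control cells on its bright probe set, a difference of -0.61, but 7.24 in overexpressing cells and a signal under the floor in control cells on its dim one, a difference of 1.51.

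In all, 10 genes had at least 3 bright probe sets, and all were lower on each of them. Nupl1, which encodes a nucleoporin of the central channel of the nuclear pore, had differences from -0.91 to -0.61 on its 4 bright probe sets. The 4 of Pabpn1, which encodes the nuclear poly(A)-binding protein, spread from -1.29 to -0.32, the widest range of the 37 genes. The chaperone gene Clu lay between -0.95 and -0.75, Rbm26 between -0.89 and -0.68 and Mphosph8 between -0.93 and -0.51. The 3 of Gmfb, which encodes glia maturation factor beta, were at -0.70 or under. Elp3, the catalytic subunit of Elongator, lay between -0.66 and -0.45, Psmc6 between -0.79 and -0.29, Styx between -0.81 and -0.37 and Gnpnat1, an enzyme of hexosamine synthesis, between -0.38 and -0.15.

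Mdp1 and Itm2b were the 2 genes whose bright probe sets went opposite ways. Mdp1, a phosphatase gene, had 8.12 in overexpressing and 8.61 in control cells on one probe set, and 8.19 in overexpressing and 8.01 in control cells on another. Itm2b, which encodes a membrane protein mutated in familial dementias, had 11.70 in overexpressing and 11.81 in control cells on one and 11.21 in overexpressing and 11.04 in control cells on another. Cdadc1, a deaminase gene, was near 0 on one probe set at -0.01 but at -0.80 on another, and Eef1akmt1, a lysine methyltransferase gene, stood at -0.58 and -1.42.

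**Figure D4:**
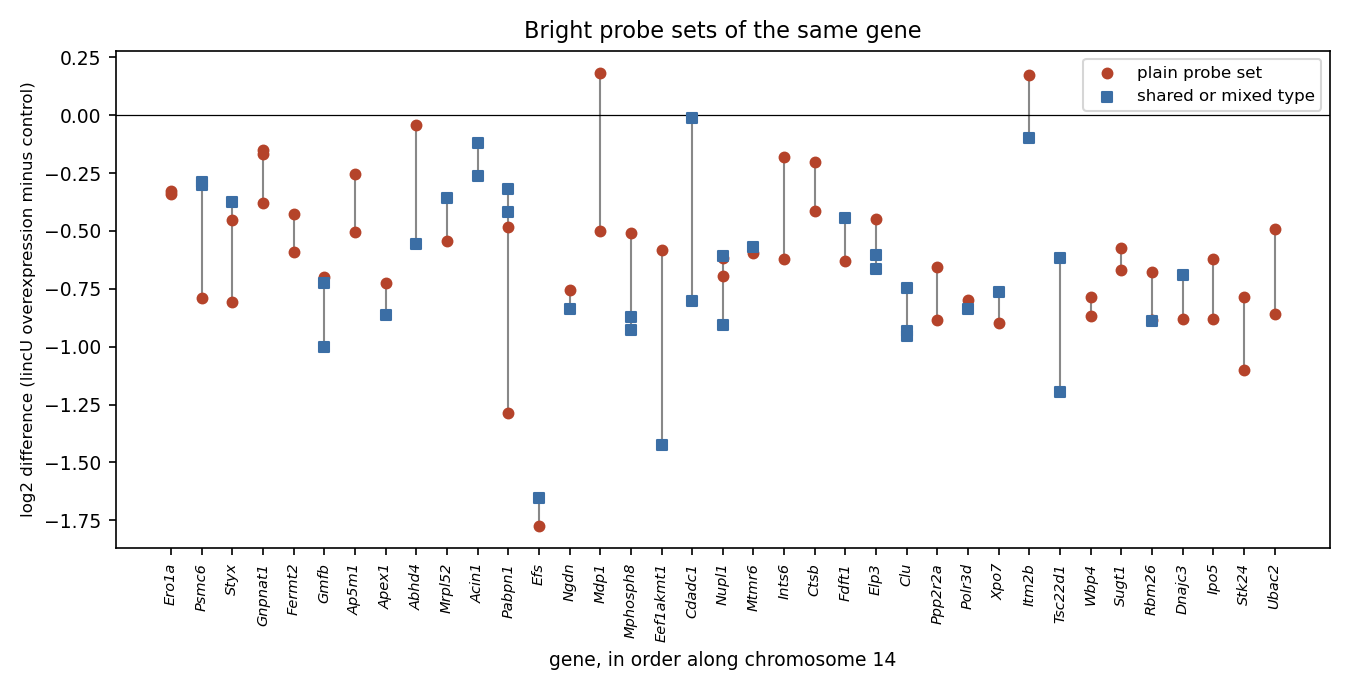
Log2 difference (lincU overexpression minus control) of every bright probe set of the 37 genes with at least 2, in order along chromosome 14, with plain probe sets as circles, those of shared or mixed type as squares and a line joining the probe sets of a gene. Only Mdp1 and Itm2b have a probe set above 0, and Pabpn1 has the widest range.

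In all, 6 bright genes did not share the lower signal, where 50.2% of all bright genes stood at 0 or above. Shisa2 belongs to a family whose founding member, in Xenopus, retains WNT and FGF receptors in the endoplasmic reticulum. It had a log2 signal of 7.98 in overexpressing and 7.36 in control cells, a difference of 0.62. Shisa2 was the 1 member that was bright through the overexpression array alone, and so had to be higher. Its second, dim probe set stood at 7.79 in overexpressing cells and under the floor in control cells. Lgals3, which encodes the sugar-binding protein galectin-3, had 11.07 in overexpressing and 10.65 in control cells, a difference of 0.41. Rb1, the retinoblastoma gene that holds E2F factors in check, had 8.97 in overexpressing and 8.78 in control cells, a difference of 0.19. These 3 therefore stood 1.21, 1.01 and 0.79 above the median of the members, although the 0.19 of Rb1 is smaller than the spread of 0.23 (SD) that several probe sets of 1 gene show. Lgals3 and Rb1 had no second probe set, so nothing on the arrays repeats their values.

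The other 3 were close to 0. The autophagy gene Atg14 had 9.29 in overexpressing and 9.21 in control cells and lies next to Lgals3 in the order of bright genes. Dhrs4, a short-chain dehydrogenase gene, had 8.35 in overexpressing and 8.27 in control cells. Bin3, which encodes a membrane-bending BAR domain protein, had 8.28 in overexpressing and 8.21 in control cells. Their differences of 0.08, 0.08 and 0.07 are also smaller than that spread, and so are those of Tpt1 at -0.01, Cdadc1 at -0.01 and Rnase4 at -0.03 on the lower side. In all, 19 of the 132 genes stood above -0.23. The 6 genes kept a difference above 0 under quantile normalization and subtraction of a loess trend. Centring on the array median raised every difference alike, so under it these 6 could not fall below 0. Under centring Tpt1, Cdadc1 and Rnase4 were above 0 as well, at 0.05, 0.04 and 0.03.

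Around Rb1 differences of unlike size stood side by side. Rcbtb2, its neighbour before it, had 8.37 in overexpressing and 9.97 in control cells, a difference of -1.59, and Itm2b, its neighbour after it, the probe sets given above. Rcbtb2 was at -0.90 on a second, dim probe set. Med4, a Mediator subunit, Slc25a30, a mitochondrial carrier, and Tpt1, the translationally controlled tumour protein gene, followed at -0.50, -0.27 and -0.01. Tpt1 had 14.79 on both arrays, near the top of the range of both arrays.

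At the other extreme, 10 bright genes were at least 2-fold lower. Efs, an SRC-binding adaptor of the CAS family, had 6.92 in overexpressing and 8.69 in control cells, a difference of -1.77, and its second bright probe set gave -1.66. The neurofilament light chain gene Nefl had 9.17 in overexpressing and 10.87 in control cells, a difference of -1.70. Rcbtb2, given above, was next in order of size. The amino acid exchanger gene Slc7a7 had 9.94 in overexpressing and 11.36 in control cells, and the adaptor gene Dok2 had 6.82 in overexpressing and 8.21 in control cells. Slc39a14, a zinc and manganese transporter gene, had 8.94 in overexpressing and 10.19 in control cells, and its dim probe set gave -0.55. Slain1, which acts at microtubule plus ends, Tnfrsf19, Il17d and Tgds followed at -1.12, -1.09, -1.06 and -1.04. Of these 10 only Efs had a second bright probe set. Efs, Dok2, Slain1, Tnfrsf19, Il17d and Tgds were under the array median in overexpressing cells, and so were 17 bright members in all, which were bright through the control array alone. With brightness required on both arrays, 114 members were left and 4 of them were at least 2-fold lower.

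Promoters are shown for members at both extremes with a single start in the RefSeq promoter table (GRCm38.p6), as the 250 bases upstream of the start, 5′ to 3′ on the strand of the gene. They are shown so that the letters upstream of genes that differed in opposite directions can be read side by side. Capitals mark matches, on either strand, to one of 5 motifs, which can overlap. The GC box was searched as GGGCGG. The letters CCAAT stood for the box of that name. TATAAA was used for the TATA box. The E-box was spelled CACGTG. For an ETS site the letters were CCGGAAG. Efs (chr14:54926789-54927038, minus strand) and Slain1 (chr14:103649978-103650227, plus strand) were lower, and Shisa2 (chr14:59625031-59625280, plus strand) and Lgals3 (chr14:47373610-47373859, plus strand) were higher in overexpressing cells.
Efs: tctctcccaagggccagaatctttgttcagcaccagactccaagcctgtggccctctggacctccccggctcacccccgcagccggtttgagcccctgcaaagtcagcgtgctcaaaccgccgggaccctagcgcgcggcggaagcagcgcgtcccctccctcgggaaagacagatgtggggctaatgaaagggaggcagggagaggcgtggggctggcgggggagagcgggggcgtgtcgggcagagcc
Slain1: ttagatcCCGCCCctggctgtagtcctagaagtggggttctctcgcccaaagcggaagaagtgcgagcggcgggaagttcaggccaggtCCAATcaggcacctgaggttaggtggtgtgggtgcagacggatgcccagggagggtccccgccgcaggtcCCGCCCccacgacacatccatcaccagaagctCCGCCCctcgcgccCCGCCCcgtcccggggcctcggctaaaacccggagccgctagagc
Shisa2: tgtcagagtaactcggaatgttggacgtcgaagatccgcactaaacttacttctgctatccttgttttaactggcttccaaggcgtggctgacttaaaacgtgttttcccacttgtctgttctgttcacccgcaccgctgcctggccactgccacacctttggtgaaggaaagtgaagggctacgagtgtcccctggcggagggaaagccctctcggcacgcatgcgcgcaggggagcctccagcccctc
Lgals3: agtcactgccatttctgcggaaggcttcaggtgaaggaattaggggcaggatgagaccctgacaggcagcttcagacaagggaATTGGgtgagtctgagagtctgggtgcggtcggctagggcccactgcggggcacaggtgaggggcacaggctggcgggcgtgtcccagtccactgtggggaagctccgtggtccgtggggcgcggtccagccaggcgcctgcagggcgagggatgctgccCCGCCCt
None of the 5 motifs occurred in the windows of Efs and Shisa2, one gene at either extreme. Over the 102 members with a promoter in the table, a GC box was present in 59.8%, against 63.2% of 4633 bright genes and 33.0% of all 27025 promoters. A CCAAT box was present in 44.1% of members, against 37.8% of bright genes and 34.5% of all promoters. An ETS site was present in 20.6% of members, against 16.7% of bright genes and 7.07% of all promoters. An E-box and a TATA box were each present in 6.86% of members, against 9.17% and 5.98% of bright genes and 6.04% and 13.0% of all promoters. Members with a GC box had a median difference of -0.59 and those without of -0.61. With and without a CCAAT box the medians were -0.63 and -0.57, with and without an ETS site -0.51 and -0.60, with and without an E-box -0.70 and -0.59, and with and without a TATA box -0.55 and -0.60. The E-box and the TATA box were each present in only 7 members and absent from 95, so their medians rest on few genes.

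Neighbours that are transcribed away from each other from starts close together were also compared. All lie in the interval chosen for lower signals, so that both partners are lower says nothing further. Osgep, an enzyme gene of tRNA modification, and Apex1, the main endonuclease gene for abasic sites in DNA, have 55 bases between their starts. Dad1, a subunit of the oligosaccharyltransferase, and the lipase gene Abhd4 have 199. The bases between the starts are shown, on the plus strand, with the same motifs in capitals, at chr14:50924894-50924948 and chr14:54253930-54254128.
Osgep-Apex1: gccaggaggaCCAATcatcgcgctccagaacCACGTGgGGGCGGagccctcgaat
Dad1-Abhd4: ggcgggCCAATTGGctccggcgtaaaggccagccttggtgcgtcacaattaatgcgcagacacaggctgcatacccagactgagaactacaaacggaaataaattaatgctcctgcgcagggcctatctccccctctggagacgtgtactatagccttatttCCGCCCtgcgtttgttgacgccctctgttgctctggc
Osgep had 9.19 in overexpressing and 9.82 in control cells and Apex1 had 12.41 in overexpressing and 13.14 in control cells. Their differences of -0.64 and -0.72 lay 0.08 apart, although the second bright probe set of Apex1 stood at -0.86. Dad1 and Abhd4 stood at -0.48 and -0.55, also 0.08 apart, although the second bright probe set of Abhd4 stood at -0.04. In a further pair with overlapping starts, Wbp4 stood at -0.87 and Elf1, an ETS family gene, at -0.47, which is 0.40 apart. The second bright probe set of Wbp4 stood at -0.79. Neighbouring bright genes of the interval differed by a median of 0.29.

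By role, 98 of the 132 bright genes were in one of 12 lists. The counts of lower genes in the lists stand against 95.5% lower and 51.5% at least 1.5-fold lower among the 132, an interval chosen for being lower, and against 49.8% and 6.69% among all bright genes. They say nothing particular to a role. All 11 bright genes of chromatin, replication and DNA repair were lower, with a median of -0.60. Parp2, which senses DNA breaks, had 10.28 in overexpressing and 11.22 in control cells, a difference of -0.93. The arginine methyltransferase gene Prmt5 had 11.35 in overexpressing and 12.19 in control cells, a difference of -0.84, and Mphosph8, a subunit of the HUSH silencing complex, stood at -0.87. The remodeller gene Chd8 and the FACT subunit gene Supt16 were nearer the median at -0.59 and -0.54, and Acin1 was the highest of the list at -0.26.

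All 16 bright genes listed for RNA polymerases and RNA processing were lower, with a median of -0.63. Ints9 and Ints6, both subunits of Integrator, stood at -0.88 and -0.18, the second gene with -0.62 on another bright probe set. Polr3d, a subunit of RNA polymerase III, was at -0.80, Dis3, a nuclease of the RNA exosome, at -0.74, and Gtf2f2, a subunit of TFIIF, at -0.61. Hnrnpc, which binds nascent transcripts, had 11.72 in overexpressing and 12.14 in control cells, a difference of -0.42. Mettl3, the methyltransferase of N6-methyladenosine, had 9.89 in overexpressing and 10.26 in control cells, a difference of -0.37. Ndrg2, the highest of the list at -0.14, is a stress-related gene with no such role known.

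The 6 genes of nuclear transport lay close together, with a median of -0.68 and a range from -0.76 to -0.50. The exportin genes Xpo7 and Xpo4 were both at -0.76, the importin genes Ipo4 and Ipo5 at -0.73 and -0.62, Nupl1 at -0.61 and the importin alpha gene Kpna3 at -0.50.

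All 12 bright genes listed for the proteasome, ubiquitin and NEDD8 were lower, with a median of -0.58. The proteasome genes proper were among the less low: Psmb5, a catalytic subunit, had 12.45 in overexpressing and 12.89 in control cells, a difference of -0.44. Psmc6, an ATPase of the cap, and Psme1, of the activator, were at -0.29 and -0.51, and Nedd8 at -0.20. Apart from Rcbtb2, the lowest were Ubac2 at -0.86, Naa30, an acetyltransferase of protein N termini rather than a ubiquitin gene, at -0.84, Commd6, a COMMD family gene, at -0.77 and the ubiquitin ligase gene Mycbp2 at -0.71.

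The list of ligands, receptors and signalling enzymes had the lowest median of the lists with over 2 bright genes, at -0.81, with all 12 bright genes lower and 10 of them at least 1.5-fold lower. Efs, Tnfrsf19, Il17d, Tnfsf11 and Rap2a were bright through the control array alone, and so had to be lower. The 7 others had a median of -0.78, with 5 at least 1.5-fold lower. The ligand gene Bmp4, whose product sustains embryonic stem cells together with LIF, had 9.28 in overexpressing and 10.10 in control cells, a difference of -0.83. Of the other ligands, Fgf17 had 8.39 in overexpressing and 9.18 in control cells, Tnfsf11 stood at -0.86 and Il17d at -1.06. The receptor gene Tnfrsf19 had 7.19 in overexpressing and 8.27 in control cells. Inside the cell, besides Efs, the phosphatase subunit gene Ppp2r2a stood at -0.88, the kinase gene Stk24 at -0.79, the exchange factor gene Dock9 at -0.60 and Cab39l at -0.23. A second bright probe set gave -0.66 for Ppp2r2a and -1.10 for Stk24.

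The 7 bright cell cycle genes had a median of -0.56. Ajuba, a LIM domain protein gene, Diaph3, a formin of cytokinesis, Sugt1, a kinetochore co-chaperone, and the kinase gene Pbk stood at -0.77, -0.71, -0.57 and -0.56. Rb1 was the only one of the 7 that was not lower. Diaph3 was bright through the control array alone and so had to be lower, and the 6 others had a median of -0.53. The 4 bright transcription factor genes, Nfatc4, Tox4, Tsc22d1 and Elf1, stood at -0.95, -0.63, -0.62 and -0.47. Tsc22d1 stood at -1.19 on a second bright probe set. Nfatc4 and Elf1 were bright through the control array alone and so had to be lower. Of the 8 bright genes of mitochondria and autophagy 7 were lower, with a median of -0.41, from Pck2, the mitochondrial enzyme of phosphoenolpyruvate synthesis, at -0.81 to Atg14. Slc25a37, Vwa8 and Clybl were bright through the control array alone and so had to be lower. The 5 others had a median of -0.36. The mitochondrial ribosomal protein genes Mrpl57 and Mrpl52 were at -0.55 and -0.36.

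Of 13 bright genes for metabolic enzymes and transporters 12 were lower, with a median of -0.55. The purine phosphorylase gene Pnp had 12.17 in overexpressing and 12.85 in control cells, a difference of -0.67, and Fdft1, which makes squalene, stood at -0.44. Cryl1, bright through the control array alone, was at -0.99 on its bright probe set and at 0.79 on a dim one. Of the 6 bright genes of matrix, junctions and cell surface, Clu was lowest at -0.95, the protease gene Mmp14 stood at -0.33 and Lgals3 alone was higher. The 2 remaining lists had 2 bright genes each, Nefl with Itm2b and Dad1 with Rnase4. Dad1 was listed with the T cell receptor because it adjoins that locus, not for its role. The 34 bright genes in no list had a median of -0.53, with 32 lower.

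**Figure D5:**
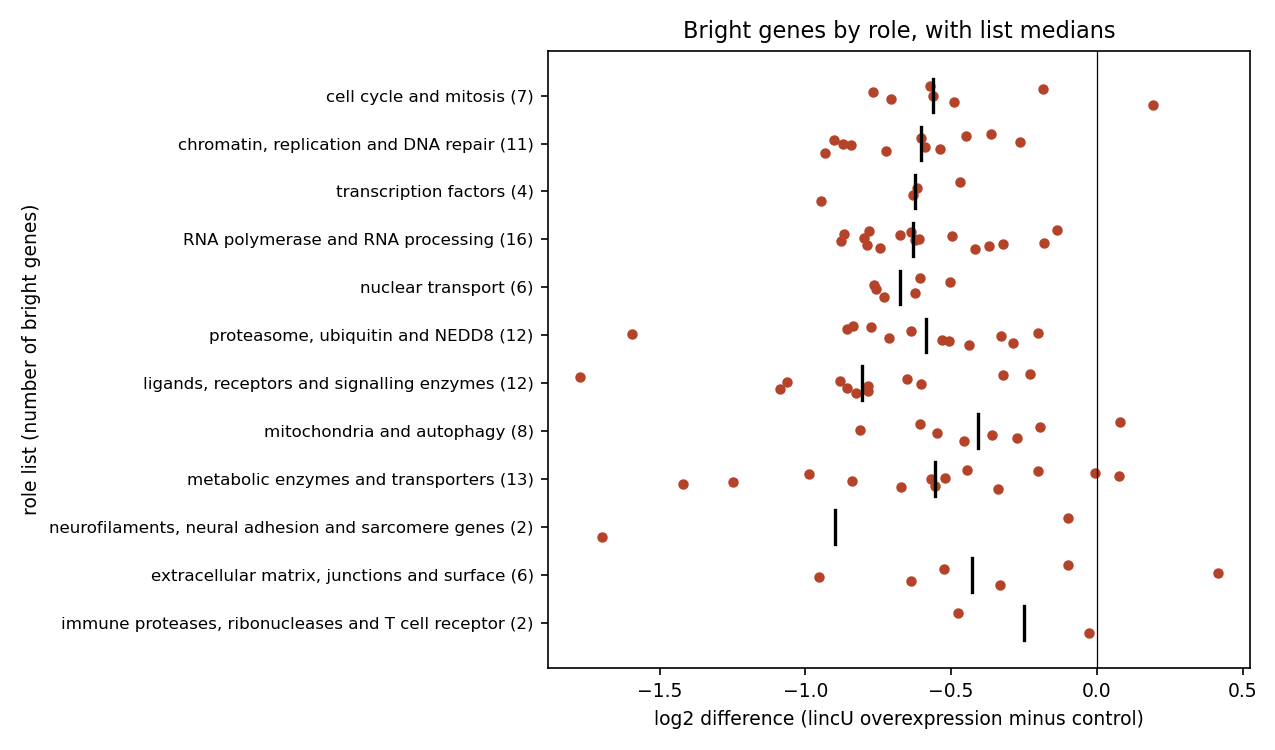
Log2 difference (lincU overexpression minus control) of the bright genes in each of 12 role lists, as points with a vertical bar at the list median and the number of bright genes in brackets. Medians of all lists are below 0, and the points above 0 are Rb1, Atg14, Dhrs4 and Lgals3.

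The 112 dim genes were less uniform. Under the floor on both arrays were 46 of them, among them 5 of the 6 granzymes measured by a single-gene probe set. A probe set shared by Gzmd and Gzme, given below, was bright. Of the 39 above the floor on both arrays, 26 were lower, with a median of -0.17 and a range from -1.69 to 0.70. The 1726 dim genes elsewhere on the table that were above the floor on both arrays had a median of -0.10, with 59.8% lower.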

How the data were processed

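Log2 signals per probe set were used as deposited, 1 array for lincU overexpression and 1 for control. Per the submitters' processing notes MAS5 and affy were used, with no version, role or order, and how the arrays were scaled is not stated there. The deposited values were taken as log2 since they end at 15.26 on the overexpression and 15.13 on the control array. Of 16994 probe sets, 15273 had a single gene name in the platform annotation, and 15252 of these were updated through gene IDs to RefSeq symbols and gene order of GRCm38.p6. Probe sets with several names (501) or none (1156) and 64 control probe sets were left out of the gene comparison.

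Each array had a floor at its 25th percentile, 5.65 for overexpression and 5.73 for control, and a gene under it on both arrays was given a difference of 0. Of several probe sets, the one with the highest mean signal stood for the gene. Fold counts used at least 2-fold or 1.5-fold, and blocks held 20 bright genes. With 1 array per group no test was run, and precision is limited by the number of arrays. Genes named were the first and last 3 bright members, the 12 lowest and 12 highest, all at 0 or above, all with at least 3 bright probe sets, up to 3 per role list farthest from the members' median, and a fixed list, with the genes that illustrate a role list or lie next to one of these added after their values were seen. The members and role lists were chosen with earlier results of these data known. The steps were tested on simulated arrays. Promoters came from the RefSeq table, which held 102 of the 132 bright members, with the most upstream start of a gene used for motif counts. Computations used Python 3.11.15, numpy 2.4.6, pandas 2.3.3, scipy 1.17.1 and statsmodels 0.14.6.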

Additional observations from a re-analysis of the deposited data

How the results depend on the processing

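The median of the bright members stayed between -0.59 and -0.50 under all 11 alternatives, and every block median stayed below 0. Not all of these could move it. Leaving out the floor could not, as the lowest signal of a bright member, 6.82, was above both floors. Centring shifts all differences alike. As the interval was chosen for lower genes, medians below 0 describe that choice. The array scalings and floors tried left 132 bright members. Centring each array on its median moved the median of all bright genes to 0.06, against 0.00 as reported, and put 9 members at 0 or above. With a pseudocount of 64 in place of the floor 6 members were at least 2-fold lower, against 10 as reported. With brightness required on both arrays that count was 4, and with plain probe sets alone (none of shared or mixed type) it was 6. With no brightness rule, 30 of 198 members not under the floor on both arrays were at 0 or above. With brightness at the 75th percentile 67 members were left, by construction fewer, of which 66 were lower, 35 at least 1.5-fold lower, 3 at least 2-fold lower and 1 at 0 or above, and 18 of 19 genes had all bright probe sets lower. With plain probe sets alone 16 of 17 genes did.

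Of the single genes named, Itm2b stood at 0.17 with plain probe sets alone and Lats2, a dim gene at 0.25, at -0.048 with probe sets averaged; in 17 other cases a gene moved by more than 0.23 but kept its sign. The cause was not tested. Shisa2 stood at 1.34 and Rcbtb2 at -0.83 with probe sets averaged. Values near or under the floor limit the dim genes. No paired analysis was possible because each group has 1 array.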

Other observations

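Among the dim genes of the interval, some developmental genes differed by as much as the bright ones. The protocadherin gene Pcdh8, active in paraxial mesoderm, had a log2 signal of 5.86 in overexpressing and 7.54 in control cells, a difference of -1.69. The WNT receptor gene Fzd3 differed by -1.01, but by 0.24 on its other probe set, which was under the floor in control cells. Nefm, the neurofilament gene next to Nefl, had 6.34 in overexpressing and 7.02 in control cells. Fgf9 and Bmp1, a procollagen protease gene, stood at -0.56 and -0.70. The other way went the immediate early gene Egr3, with 7.01 in overexpressing and 6.31 in control cells. The endoderm factor gene Gata4 stood at 0.03, and at -0.35 on its other probe set. These genes were picked after their values were seen, and none has a bright probe set.

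Another 8 probe sets carried several gene names that all lie in the interval, and 4 of them were bright. That shared by Xpo4 and Lats2 had 8.14 in overexpressing and 9.16 in control cells, that of Ipo4 and Tm9sf1 had 8.65 in overexpressing and 9.48 in control cells, and that of Entpd4 and Entpd4b had 7.53 in overexpressing and 8.37 in control cells. The probe set of Gzmd and Gzme had 8.29 in overexpressing and 8.37 in control cells. All 4 were lower, at -1.01, -0.84, -0.83 and -0.09.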
